A study of Mus musculus with 8 samples.

Results

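Clock output transcription factors are 1 of the routes by which the core clock acts on other genes, beside the direct targets of BMAL1:CLOCK, and 7 of them were followed here: Dbp, Tef, Hlf, Nfil3, Bhlhe40, Bhlhe41 and Ciart. A BMAL1 peak was taken as belonging to one of them when the peak's centre had its nearest curated RefSeq transcription start site (GRCm38) in that gene or lay within its gene body. By that rule 39 of the 211109 peaks in the 4 ChIP-seq lists fell to 5 of the 7 genes, and every one of the 39 came in by the nearest start site. HC11 cells are an established epithelial line from the mouse mammary gland, and BMAL1 was immunoprecipitated from 2 undifferentiated (UNDIFF6 and UNDIFF8) and 2 lactogen differentiated cultures (DIFF1 and DIFF2) in separate ChIP experiments, each beside its own input DNA. Every culture went 48 h without EGF in medium holding 10% calf serum and 5 µg/mL insulin, whereas DIFF cultures afterwards had 96 h with prolactin and insulin, both at 5 µg/mL, together with dexamethasone at 0.1 µM. All were crosslinked with 1% formaldehyde. HC11 is a single cell line, and since peak lists carry no expression values, neither its mammary identity nor its state of differentiation could be checked against marker genes.

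BMAL1 pairs with CLOCK and binds the E-box, CACGTG. Among its best known targets in mouse liver are genes that encode further transcription factors: DBP, TEF and HLF. They share a PAR bZIP domain and activate genes through D-boxes, whereas NFIL3 (E4BP4) represses through the same D-boxes. BHLHE40 and BHLHE41 (DEC1 and DEC2) compete for E-boxes, and CIART (CHRONO) represses BMAL1:CLOCK, so that both close negative loops on their own activator.

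The lists differed greatly in length, with 6534 peaks in UNDIFF6, 5475 in UNDIFF8, 13683 in DIFF1 and 185417 in DIFF2, on tag totals between 35.3 M tags (DIFF2) and 80.3 M tags (UNDIFF6). DIFF2 stood apart from the other lists. Its peaks went down to a score of 14, while those of the others began at 23 or 24. In DIFF2 the centres of 86.0% of peaks were in sequence that the reference genome soft-masks as repeats, against 21.4% to 26.6% in the other lists, and 31.4% of its peaks held a run of at least 12 bases of a dinucleotide repeat, against 2.19% to 3.36%. Without DIFF2, 5 peaks at 4 of the genes remained.

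The promoters of 3 of the genes held a canonical E-box. RefSeq promoter sequences (GRCm38.p6, 250 bases before to 50 after the start) were matched for 6 of the 7 genes, in 7 entries since Tef has 2 start sites, and Bhlhe40 had no entry. They are shown because they are where BMAL1 would be looked for first, with CACGTG in capitals (all sequences here run 5′ to 3′ on the strand of the gene), at chr3:95882179-95882478 for Ciart, chr6:145865371-145865670 for Bhlhe41, and chr15:81802423-81802722 and chr15:81811164-81811463 for Tef.
Ciart: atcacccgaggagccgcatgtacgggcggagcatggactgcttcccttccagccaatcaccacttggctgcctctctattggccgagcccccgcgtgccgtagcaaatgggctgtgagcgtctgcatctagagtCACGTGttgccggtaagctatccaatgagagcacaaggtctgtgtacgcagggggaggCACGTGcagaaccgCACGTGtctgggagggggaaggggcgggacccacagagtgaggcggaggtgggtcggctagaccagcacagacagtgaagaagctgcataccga
Bhlhe41: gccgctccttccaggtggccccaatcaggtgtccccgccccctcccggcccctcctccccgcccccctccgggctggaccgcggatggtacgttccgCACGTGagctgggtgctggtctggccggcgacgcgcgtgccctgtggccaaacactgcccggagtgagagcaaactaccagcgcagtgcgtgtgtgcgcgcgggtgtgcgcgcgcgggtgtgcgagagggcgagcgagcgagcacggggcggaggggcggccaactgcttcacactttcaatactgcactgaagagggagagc
Tef, first start site: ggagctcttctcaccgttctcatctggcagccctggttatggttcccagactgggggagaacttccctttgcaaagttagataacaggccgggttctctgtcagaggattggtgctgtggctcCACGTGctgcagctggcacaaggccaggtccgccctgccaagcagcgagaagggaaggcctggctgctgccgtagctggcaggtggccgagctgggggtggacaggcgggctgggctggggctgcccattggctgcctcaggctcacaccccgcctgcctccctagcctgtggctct
Tef, second start site: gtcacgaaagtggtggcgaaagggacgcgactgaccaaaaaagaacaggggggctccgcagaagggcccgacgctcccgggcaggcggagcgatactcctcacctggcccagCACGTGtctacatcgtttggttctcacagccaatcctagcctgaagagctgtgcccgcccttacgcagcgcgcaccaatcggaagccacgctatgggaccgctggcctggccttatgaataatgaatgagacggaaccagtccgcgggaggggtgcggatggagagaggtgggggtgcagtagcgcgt
Ciart had 3 copies, whose first bases lay 116, 58 and 44 bases before the start. Bhlhe41 had 1 copy at 153 bases before it, and the Tef promoters had 1 copy each, 127 and 138 bases before their starts. Of all 32851 promoters of that length in the table, 7.15% held CACGTG at least once (it reads the same on both strands) and 0.0883% held it 3 times or more. No copy was found in these windows for Dbp, Hlf or Nfil3. The D-box, searched as TTANGTAA on both strands, was in none of the 7 entries and in 2.32% of all promoters.

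In Dbp the E-boxes nearest to the start lay further in, within the second intron of the gene. The stretch with both, 113 bases apart, is at chr7:45707692-45707850 and is shown because intronic E-boxes of Dbp are a textbook BMAL1 site in mouse liver.
Dbp intron: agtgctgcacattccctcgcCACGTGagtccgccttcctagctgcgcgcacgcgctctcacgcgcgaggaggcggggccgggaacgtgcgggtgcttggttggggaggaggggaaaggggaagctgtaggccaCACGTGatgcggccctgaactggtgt
In all, 21 copies of CACGTG lay within 5 kb of a start site of the 7 genes, 5 at Tef, 4 each at Bhlhe40 and Ciart, 3 at Bhlhe41, 2 each at Dbp and Nfil3 and 1 at Hlf. None of the 21 lay inside a peak of any list. In DIFF2, 1 of them was within 1 kb of a peak centre, a copy in Bhlhe41 at 0.801 kb from it, and in the other lists none was. None of the 7 promoter windows was overlapped by a peak either. The genome holds 267819 copies of CACGTG, while 4920 DIFF2 peaks held it and fewer peaks of the other lists did. Nearly all copies thus lay outside peaks. Over protein coding genes, the 10th percentile of the distance from a start site to the nearest DIFF2 peak was 1.21 kb. An absence among so few copies and windows is near these backgrounds.

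The number of peaks at the clock output genes was 2 in UNDIFF6, 0 in UNDIFF8, 3 in DIFF1 and 34 in DIFF2. Both DIFF lists were above both UNDIFF lists. UNDIFF lists averaged 1.00 ± 1.41 member peaks (SD, n = 2), and DIFF lists averaged 18.5 ± 21.9 (SD, n = 2). On the log2(peaks + 1) scale the difference of DIFF minus UNDIFF was 2.77, with an exact permutation p of 0.333 (two-sided), the smallest that 2 samples against 2 allow. Without soft-masked peaks (those with a soft-masked centre) the counts were 2, 0, 2 and 8, so that UNDIFF6 and DIFF1 were equal. The difference was then 1.58 (exact permutation test, two-sided p = 0.667). No test of that size can pass 0.05, and p measures only the spread between these experiments. Relative to the length of each list, the genes held per 1000 peaks 0.306 in UNDIFF6, 0 in UNDIFF8, 0.219 in DIFF1 and 0.183 in DIFF2. The groups overlapped on that scale, with UNDIFF6 highest and UNDIFF8 lowest, and the difference of the means was 0.0483 (exact permutation test, two-sided p = 1.00). With the same number of peaks from each list (the 5475 of highest score), the counts were 1, 0, 0 and 0 in the same order.

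A peak was at 2 of the 7 genes in UNDIFF6, where 14.2% of 21000 protein coding genes had one by the same rule, at 0 in UNDIFF8 (9.59%), at 3 in DIFF1 (26.6%) and at 5 in DIFF2 (84.3%). Of genes with a peak in both DIFF lists and in neither UNDIFF list there were 2, Tef and Bhlhe41, and 14.3% of protein coding genes had that pattern. Dbp and Bhlhe40 had no peak in any list, as was so for 14.6% of protein coding genes. None of the 7 had a peak in UNDIFF8, and hence none was in all lists.

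**Figure D1:**
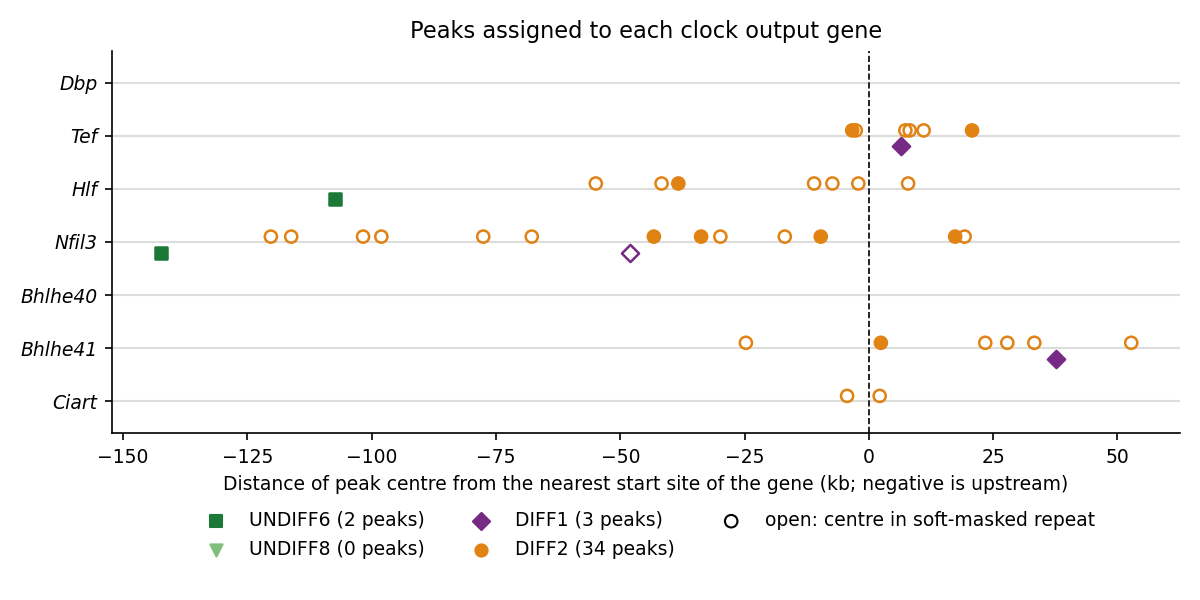
Position of every peak assigned to the 7 genes, with the distance of the peak's centre from the nearest start site of the gene in kb on the horizontal axis (negative is upstream) and 1 line per gene. Colours and symbols give the list, and open symbols have their centre in soft-masked sequence. Dbp and Bhlhe40 are empty, UNDIFF6 peaks lie over 100 kb upstream, and no peak of any list is within 1 kb of a start site. Over protein coding genes, the 10th percentile of the distance to the nearest DIFF2 peak was 1.21 kb.

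The PAR bZIP activators differed among themselves. Dbp, on chromosome 7 (start site at 45705247), drew no peak. The stretch of chromosome nearer to its start site than to any other, or in its body, is 7.62 kb long, against a median of 50.1 kb over all 21000 genes. A stretch of that length would hold 0.518 DIFF2 peaks and 0.0383 DIFF1 peaks at the mean density of those lists. The nearest DIFF2 peak was 7.01 kb upstream of the Dbp start, in soft-masked sequence with a fold over input of 2.63, and had its nearest start site in Car11. The nearest peaks of the other lists were 66.1 kb (DIFF1), 896 kb (UNDIFF6) and 2996 kb (UNDIFF8) away. From peak lists alone a gene with no peak cannot be called unbound.

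Tef, on chromosome 15 with start sites at 81802673 and 81811414, was the only one of the 7 genes with a DIFF1 peak within its body. That peak, 6.38 kb after the second start site in the second intron of the transcript that begins there, had 15.2 ChIP tags against 4.00 input tags, a fold over input of 3.81 (exact 95% interval on the rounded tags 1.19 to 15.5, for counting error only) and an unadjusted p over input of 1.99e-05. Its score of 24 was the lowest that the DIFF1 list holds. Listed tags are not whole counts, so this interval and the others on fold over input are approximate. The sequence of the peak, at chr15:81817686-81817900, had no E-box of the loose form CANNTG (N is any base).
Tef, DIFF1: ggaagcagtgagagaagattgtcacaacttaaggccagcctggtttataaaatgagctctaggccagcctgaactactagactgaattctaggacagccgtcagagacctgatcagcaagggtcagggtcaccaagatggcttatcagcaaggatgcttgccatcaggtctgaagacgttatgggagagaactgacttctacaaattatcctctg
DIFF2 placed 6 peaks at Tef, 5 of them in introns of the gene and 1 past its end. Folds over input were 2.34 to 10.2 (median 2.86), and 4 of the 6 centres were soft-masked. The 6 peaks stood on a stretch of 32.2 kb, which makes 18.6 peaks per 100 kb where the DIFF2 list as a whole had 6.80. The one nearest to a start site was in the first intron of the transcript from the first start site, 2.61 kb before the second start, and it was also the peak of highest score (33.5, percentile 96.8 of the list) at any of the 7 genes. It had 44.5 ChIP tags against 4.30 input tags, a fold over input of 10.2 (95% interval on rounded tags 4.00 to 42.2) and an unadjusted p over input of 6.41e-29 from the peak caller. Its centre was soft-masked, and its fold was at percentile 81.2 of the list. The second intron held peaks of both DIFF lists, with centres 967 bp apart and 692 bp between their edges. They did not overlap. Centres this close, within 1 kb, were found for 18.3% of all DIFF1 peaks and some DIFF2 peak. In that pair the DIFF2 peak had the lowest fold over input of the DIFF2 peaks at the 7 genes. Its fold was 2.34 (95% interval on rounded tags 1.19 to 4.64), at percentile 0.964 of the list, while its score of 27.5 was at percentile 89.6. Its centre was soft-masked, as were 73.0% of its bases. The DIFF1 peak of the pair had an unmasked centre, with 56.7% of its bases soft-masked.

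Hlf, on chromosome 11 (start site at 90390917), had 1 peak in UNDIFF6, none in UNDIFF8 or DIFF1 and 7 in DIFF2. The UNDIFF6 peak was 107 kb upstream of the start and lay in an intron of Stxbp4, a neighbour whose start site was 140 kb from it. It had 20.6 ChIP tags against 5.50 input tags, a fold over input of 3.74 (1.37 to 10.6) and a score of 23.5 in a list that begins at 23.0. This peak at chr11:90498132-90498326 had an unmasked centre, and is shown as 1 of the 2 undifferentiated peaks of the whole set.
Hlf, UNDIFF6: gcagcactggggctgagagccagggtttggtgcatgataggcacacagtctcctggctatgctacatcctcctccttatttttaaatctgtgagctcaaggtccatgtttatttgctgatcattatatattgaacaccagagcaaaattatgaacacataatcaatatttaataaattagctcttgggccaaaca
The DIFF2 peaks reached from 54.9 kb upstream to 7.90 kb within the gene, with folds over input of 3.51 to 7.65 (median 6.25). None came near the UNDIFF6 peak, the closest being 52.4 kb from it. Hlf had fewer DIFF2 peaks than the list's density over its long stretch of 194 kb would give (7 against 13.2). The one nearest to the start, 2.11 kb upstream, was the nearest to a start site among all 39 peaks, with 24.5 ChIP tags against 6.40 input tags and a fold over input of 3.82 (1.59 to 11.96). Its central 300 bases at chr11:90392879-90393178 had neither CACGTG nor CANNTG but held a dinucleotide run of 41 bases, in capitals.
Hlf, DIFF2: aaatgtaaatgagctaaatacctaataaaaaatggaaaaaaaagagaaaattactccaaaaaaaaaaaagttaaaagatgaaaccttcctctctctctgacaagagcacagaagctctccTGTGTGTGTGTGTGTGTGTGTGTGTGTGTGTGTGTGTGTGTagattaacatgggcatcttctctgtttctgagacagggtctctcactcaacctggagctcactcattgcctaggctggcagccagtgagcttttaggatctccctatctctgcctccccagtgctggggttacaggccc
Such runs, counted after they were noticed in the printed sequences, were in 14 of the 34 DIFF2 peaks of the 7 genes (41.2%, exact 95% interval 24.6% to 59.3%, counting error only), 5 of them at Hlf, 5 at Nfil3, 3 at Bhlhe41 and 1 at Tef, and all 14 were of the form CACACA or TGTGTG. The shares in the whole DIFF2 list, 31.4% for any dinucleotide run and 26.2% for this form, were within the interval. No run was in the 5 peaks of the other lists. Their part in the peak calls was not tested.

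Nfil3, the repressor that shares D-boxes with the PAR bZIP proteins, was the gene with peaks in the most lists by curated start sites, though with RefSeq's predicted transcripts counted all 15 of its peaks were nearer to other genes. On chromosome 13 (start site at 52981039), it had 1 peak in UNDIFF6, 1 in DIFF1 and 13 in DIFF2. All were far from the start. The UNDIFF6 peak was 142 kb upstream in an intron of Ror2, a receptor tyrosine kinase gene whose own start site was 163 kb from it. It had 21.0 ChIP tags against 8.00 input tags and a fold over input of 2.63 (1.12 to 6.85), and its score of 23.0 was the lowest in the list. The peak's sequence, at chr13:53123372-53123566, was not soft-masked, and the stretch ctgactgtagat occurred 4 times in it.
Nfil3, UNDIFF6: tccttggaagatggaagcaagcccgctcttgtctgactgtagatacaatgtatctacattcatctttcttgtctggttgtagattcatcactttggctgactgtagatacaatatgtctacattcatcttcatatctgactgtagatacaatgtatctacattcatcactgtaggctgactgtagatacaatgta
The DIFF1 peak was 48.1 kb upstream, between genes, and 94.3 kb from the UNDIFF6 one. It had 15.2 ChIP tags against 3.50 input tags, a fold over input of 4.35 (1.19 to 15.5) and the lowest score of the DIFF1 list (24). This was the only 1 of the 5 peaks outside DIFF2 with a soft-masked centre.
Of the 13 DIFF2 peaks, 11 lay upstream and 2 downstream, at 9.68 kb or more from the start and none within the gene. Scores were 14.5 to 25.0 (median 18.0) and folds over input were 2.83 or more (median 5.70). The highest, listed as 94.2 at 77.6 kb upstream, rested on 19.5 ChIP tags against 0.200 input tags. Its listed input rounds to 0, so the interval on rounded tags has a lower bound of 4.94 and, from that rounding, no upper one. The count of 13 was close to the 12.1 that the mean density of the list gives for a stretch of 178 kb. The DIFF2 peak closest to the DIFF1 peak had its centre 4.86 kb away.

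The E-box repressor genes, both on chromosome 6, were unlike each other in these lists. Bhlhe40 (start site at 108660629) had no peak, on a stretch of 25.0 kb that would hold 1.70 DIFF2 peaks at the list's mean density. The nearest DIFF2 peak was 13.5 kb downstream and nearest to the start site of 0610040F04Rik, which is farther than for 80.5% of protein coding genes. The nearest peaks in DIFF1, UNDIFF8 and UNDIFF6 were 107, 108 and 246 kb away. Bhlhe41 (start site at 145865420) had 1 peak in DIFF1 and 6 in DIFF2. The DIFF1 peak was 37.7 kb past the start, beyond the end of the gene, with 14.9 ChIP tags against 4.00 input tags, a fold over input of 3.73 (1.19 to 15.5) and a score of 24.5, at percentile 17.5 of its list. No base of this peak at chr6:145827589-145827803 was soft-masked, and none of it matched CANNTG.
Bhlhe41, DIFF1: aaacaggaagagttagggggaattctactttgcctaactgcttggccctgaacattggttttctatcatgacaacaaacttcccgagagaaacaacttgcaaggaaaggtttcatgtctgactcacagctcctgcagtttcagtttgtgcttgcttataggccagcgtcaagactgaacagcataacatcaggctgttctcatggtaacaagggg
The DIFF2 peaks at Bhlhe41 spread from 24.7 kb upstream to 52.8 kb downstream, the last in an intron of Rassf8, and the closest to the DIFF1 peak was 4.43 kb from it. Their folds over input were 2.57 to 8.52 (median 3.41), and 5 of the 6 were soft-masked. The unmasked one lay in a coding exon 2.42 kb into the gene and was the only exonic peak of the 39. It had the highest input of the 39 (16.3 tags) beside 42 ChIP tags, a fold over input of 2.57 (1.45 to 5.00) at percentile 3.01 of the list, and a GC content of 72.1% where the median of DIFF2 peaks was 43.9%. Its central 300 bases, at chr6:145862852-145863151, are shown with CANNTG in capitals.
Bhlhe41, DIFF2: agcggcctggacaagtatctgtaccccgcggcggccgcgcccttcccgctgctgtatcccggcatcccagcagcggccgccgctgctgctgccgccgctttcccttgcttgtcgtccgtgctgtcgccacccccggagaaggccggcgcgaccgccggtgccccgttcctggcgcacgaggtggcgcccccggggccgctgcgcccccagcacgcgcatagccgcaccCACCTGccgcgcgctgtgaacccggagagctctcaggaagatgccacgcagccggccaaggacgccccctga

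Ciart, on chromosome 3 (start site at 95882228), had the richest promoter in E-boxes and 2 peaks, both in DIFF2. One was in an intron of the gene and also of the neighbour C920021L13Rik, 2.19 kb past the start. It had 31.0 ChIP tags against 6.40 input tags and a fold over input of 4.83 (2.12 to 15.1). The other was 4.37 kb upstream, within introns of the neighbours BC028528 and C920021L13Rik, with 40 tags against 11.4 and a fold of 3.51 (1.83 to 7.86), and its score of 32.5 was second to that of Tef. Both were soft-masked. The centre of the nearest one was 2.23 kb from the closest of the promoter's E-boxes. Ciart's stretch of 10.2 kb would hold 0.695 DIFF2 peaks at mean density. The nearest UNDIFF6 peak was 8.35 kb past the start and nearest to C920021L13Rik, which put Ciart nearer to an UNDIFF6 peak than 96.4% of protein coding genes, while DIFF1 and UNDIFF8 had none within 141 kb. This UNDIFF6 peak had 21.5 ChIP tags against 8.00 input tags, a fold over input of 2.69 and a score of 23.5 in a list that begins at 23.0. The intronic peak is shown by its central 300 bases, chr3:95879892-95880191.
Ciart, DIFF2: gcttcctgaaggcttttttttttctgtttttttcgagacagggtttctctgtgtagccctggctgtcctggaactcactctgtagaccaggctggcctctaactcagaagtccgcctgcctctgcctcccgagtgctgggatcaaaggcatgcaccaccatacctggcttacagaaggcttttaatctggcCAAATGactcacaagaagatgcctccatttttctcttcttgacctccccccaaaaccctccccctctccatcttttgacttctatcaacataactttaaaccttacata

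**Figure D2:**
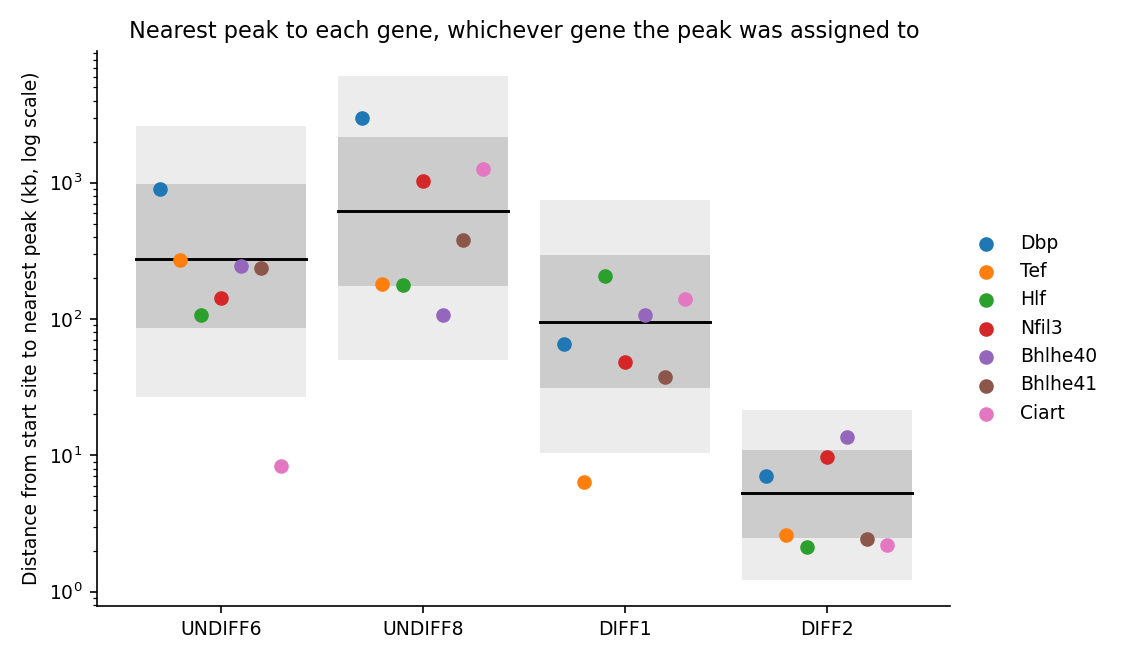
Distance in kb (log scale) from the start site of each of the 7 genes to the nearest peak of each list, whichever gene that peak was assigned to. The black line is the median over protein coding genes, the dark band their middle 50% and the light band their 10th to 90th percentile. The members fall on both sides of the median in every list, from 2.11 kb (Hlf, DIFF2) to 2996 kb (Dbp, UNDIFF8).

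A DIFF2 peak was within 5 kb of a start site at 4 of the 7 genes (Tef, Hlf, Bhlhe41 and Ciart), and at 48.2% of protein coding genes. The nearest DIFF2 peak was at a median of 2.61 kb for the 7 genes and 5.26 kb for protein coding genes. In the other lists these medians were 66.1 against 95.4 kb in DIFF1, 238 against 276 kb in UNDIFF6 and 379 against 622 kb in UNDIFF8. Over the stretches of all 7 genes, 540 kb in sum, DIFF2 had 6.29 peaks per 100 kb, close to the 6.80 of the list as a whole. Dbp and Bhlhe40 were below that density, Hlf was below it with peaks, and Tef and Ciart were above it.

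**Figure D3:**
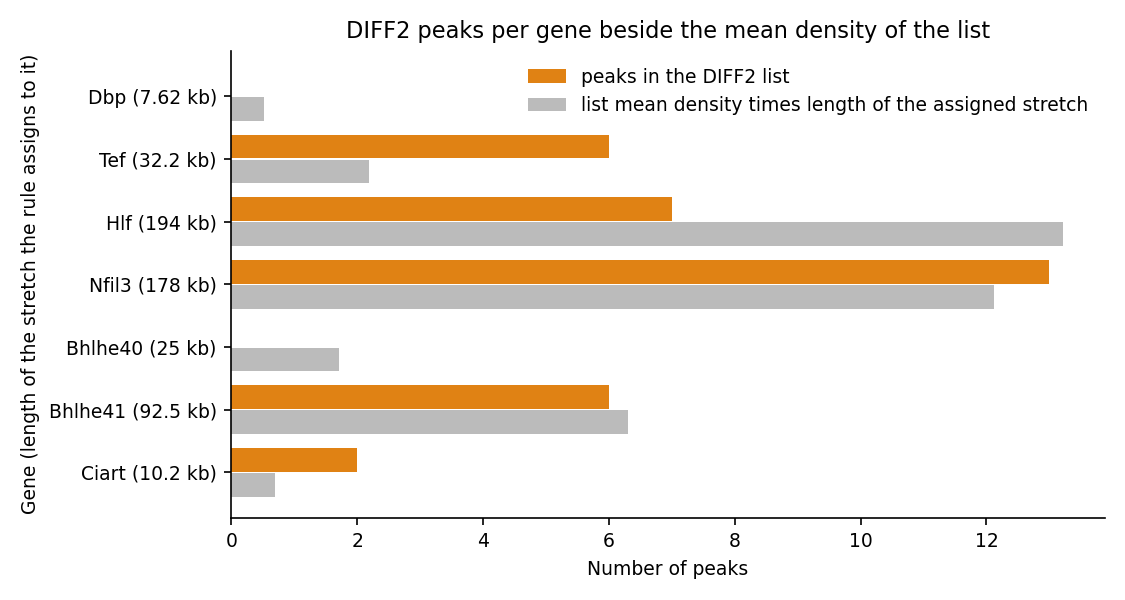
Number of DIFF2 peaks at each gene (orange) beside the number that the mean density of the list gives for a stretch of that length (grey), with the stretch's length after the gene's name. Tef had 6 against 2.19 and Ciart 2 against 0.695, while Hlf had 7 against 13.2, and Nfil3 (13 against 12.1) and Bhlhe41 (6 against 6.30) were near the mean density.

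None of the 39 peaks held CACGTG, which allows a share of up to 7.69% (0 of 34 in DIFF2 allows up to 8.82%). These limits are approximate and one-sided, taking a count of 0 to allow up to 3, and are not exact intervals. In the lists as a whole the share was 2.13% in UNDIFF6, 1.46% in UNDIFF8, 2.01% in DIFF1 and 2.65% in DIFF2, so that a lack of E-boxes at these genes was not detectable with so few peaks. The distance from a peak centre to the nearest CACGTG of the genome was 0.220 to 10.5 kb with a median of 2.02 kb. For DIFF2 the median was 2.10 kb at the 7 genes and 3.95 kb over the list. The loose form CANNTG was in 32 of the 34 DIFF2 peaks (94.1%, exact 95% interval 80.3% to 99.3%; list 86.3%), in 1 of 3 DIFF1 peaks (list 72.5%) and in 0 of 2 UNDIFF6 peaks (list 70.2%).

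By score, the peaks outside DIFF2 ranked low in their lists, and those of DIFF2 spread over the whole range. All 5 peaks outside DIFF2 had scores at percentile 22.8 or below, with a median of 7.84. Their folds over input were at percentiles 60.7 (Hlf) and 7.48 (Nfil3) in UNDIFF6, and 51.8 (Nfil3), 34.4 (Tef) and 31.6 (Bhlhe41) in DIFF1. In DIFF2 the scores of the 34 ran from 14.5 to 33.5 with a median of 20.3, against 19.0 for the list, 20 of the 34 were above the list's median, and 5 were within the top 10% of the list. Their folds over input, 2.34 and up, had a median of 4.53, below the list's 5.15, and 14 of the 34 were above the list's median. Soft-masked centres made up 26 of the 34 (76.5%, exact 95% interval 58.8% to 89.3%), and the list's 86.0% was within the interval. The 8 peaks with unmasked centres had a median fold of 3.71 and the 26 with masked centres of 4.72. Peaks with unmasked centres still held repeats, with 7.12% (Bhlhe41) to 77.7% (Hlf) of their bases soft-masked.

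**Figure D4:**
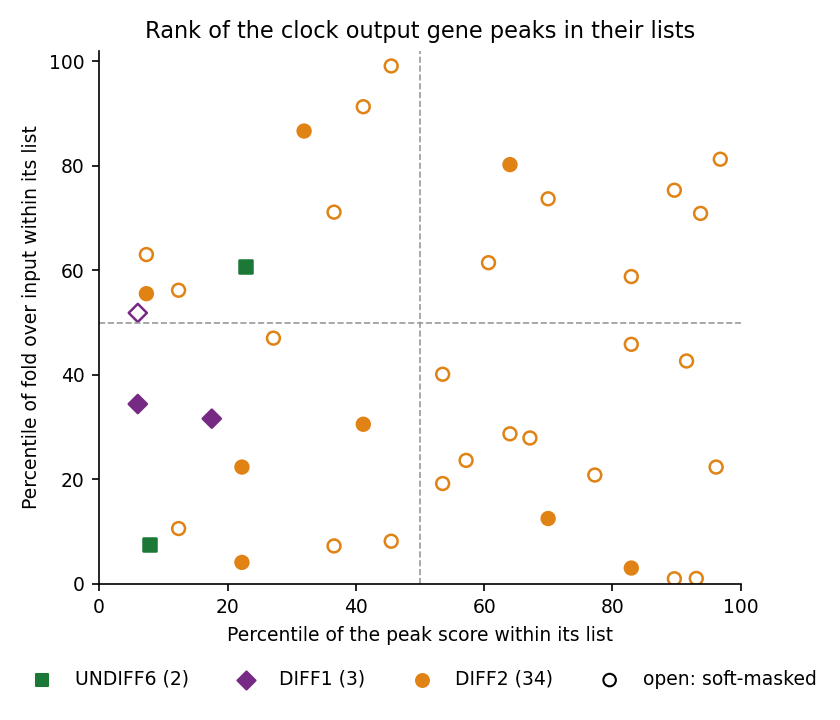
Percentile of each peak's score (horizontal axis) and of its fold over input (vertical axis) within its own list, for the 39 peaks of the 7 genes, with open symbols for soft-masked centres and dashed lines at the 50th percentile. The 5 peaks of UNDIFF6 and DIFF1 sit at the left edge, at score percentile 22.8 or below, whereas the 34 DIFF2 peaks spread over both axes.

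No 2 peaks of different lists overlapped at these genes. Over all peaks, 5.71% of those of DIFF1 and 5.54% of those of UNDIFF6 overlapped a DIFF2 peak by at least 1 bp, and 0.597% of UNDIFF6 peaks overlapped one of DIFF1. With 5 peaks outside DIFF2, no overlap is near these background shares. The closest pairs with DIFF2 had their centres 0.967 kb apart at Tef, 4.43 kb at Bhlhe41, 4.86 kb at Nfil3 and 52.4 kb at Hlf. By feature, the 2 UNDIFF6 peaks were in introns, the DIFF1 peaks were 1 intronic and 2 intergenic, and the DIFF2 peaks 24 intergenic, 9 intronic and 1 in a coding exon. The centre was within a transcript of another gene and of none of the 7 for 4 of the 39. The assignment rested on the curated start sites. With RefSeq's predicted transcripts counted too, 15 of the 39 peaks stayed with the 7 genes, 7 at Tef, 5 at Hlf, 2 at Ciart and 1 at Bhlhe41, and the other 24 were nearer to another gene, mostly to predicted transcripts. Tef was then the only gene in both DIFF lists.

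Other clock genes were counted by the same rule. In DIFF1, 2 of the 3 clock activator genes (Arntl, Clock and Npas2) had a peak, 0 of the 5 Period and cryptochrome genes and 3 of the 5 REV-ERB and ROR genes, beside 3 of the 7 output genes and 26.6% of protein coding genes. In DIFF2 every gene of those 3 lists had one, as did 84.3% of protein coding genes, so that nothing particular to the clock can be read from it. Peaks per 100 kb in DIFF2 were 7.85, 7.89 and 6.16 for the 3 groups and 6.29 for the output genes. In DIFF1 they were 0.736, 0 and 0.355, with 0.555 for the output genes and 0.502 over the list. The groups differed in the length of their stretches, with medians of 139, 54.3 and 145 kb. For the output genes the median was 32.2 kb and for all genes 50.1 kb. These lists were small and no test of a difference between them was made. By the number of peaks in the 4 lists (Euclidean distance of log2(peaks + 1), over 20 other clock and D-box genes), Tef and Bhlhe41 were most like Clock (distance 0.58), Nfil3 most like Npas2 (0.36), Hlf most like Arntl (1.05) and Ciart the same as Cry2, Cyp2a4 and Nr1i3, while Dbp and Bhlhe40 had the same counts as Alas1. These counts were shared with many genes: 3056 other protein coding genes shared those of Dbp, 2043 those of Ciart, 170 those of Tef, 50 those of Hlf and 12 those of Nfil3.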

How the data were processed

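BMAL1 ChIP and input libraries were sequenced from 2 UNDIFF and 2 DIFF cultures, and the deposited files are 1 peak list per ChIP sample. The authors trimmed the reads, aligned them with Bowtie2 2.2.9 to GRCm38 after FastQC 0.11.7 and called peaks per sample against its own input with HOMER 4.10 (fold of at least 2, FDR under 0.01), with only 1 of 5 parts of the reads used for 1 DIFF pair. The deposited lists give signal as ChIP and input tags, a focus ratio as a fraction, a findPeaks score, folds over input and local tags, and unadjusted p-values. Tags outside peaks are not in these lists, so depth was read from tags and normalized tags, and intervals and limits from 0 counts cover counting error only. Listed tags are not whole numbers, so intervals on fold over input, made on rounded tags, are approximate.

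Peak centres were assigned to the nearest of 45756 curated RefSeq start sites, and 21000 protein coding genes with such a site were counted by the same rule. For HOMER's own annotation, the release is not given in the sources read. Members and lists were chosen with earlier results of these data known, and every member is named. States were compared by exact permutation over samples (two-sided). The sequences of some peaks are not reported here. The assignment and overlap steps were tested on simulated data. Alternatives changed the score and fold minimum, list length, annotation, repeats, overlap, motif and samples. The scripts ran under Python 3.11.15 with scipy 1.17.1, pandas 2.3.3, numpy 2.4.6 and, for plots, matplotlib 3.10.9.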

Additional observations from a re-analysis of the deposited data

How the results depend on the processing

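The log2 difference in member peaks between DIFF and UNDIFF kept its direction under every alternative but equal list lengths, where it was -0.50 and the difference per 1000 peaks -0.0913. Without soft-masked peaks it was 1.58, with an exact permutation p of 0.667 in place of 0.333. Leaving out 1 sample at a time gave log2 differences of 1.21 to 4.34, differences per 1000 peaks of -0.105 to 0.201 (negative without UNDIFF replicate 8, whose list held no member peak), 2 to 3 genes in both DIFF lists and neither UNDIFF list, and a median fold percentile of 34.4 to 41.4 (34.4 without DIFF replicate 2). That gene count was 1 at a fold over input of at least 4, 1 with all RefSeq transcripts and 0 with equal list lengths. Centres within 1 kb gave 1 pair of member peaks, at Tef, in place of 0 overlaps. Of the 39 peaks, 33 held CANNTG and 28 a sequence one base from CACGTG or CACGTG itself, where 0 held CACGTG. For such near matches, DIFF2 had 27 of 34 (79.4%, exact 95% interval 62.1% to 91.3%), and the list's 64.3% was within the interval. DIFF1 had 1 of 3 and UNDIFF6 0 of 2, where the shares of the lists outside DIFF2 were 44.1% to 47.0%. The median percentile of the folds over input was 40.1, and 31.1 without soft-masked peaks. Apart from a value's own construction (fewer peaks, genes or samples), the cause was not tested. No paired analysis was possible because the UNDIFF and DIFF samples share no replicate number, and the inputs, which share numbers with their ChIP samples, have no list of their own here.

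With 2 samples per state no test can pass its threshold, a fold on 15 to 21 ChIP tags has a wide interval, and peaks under each list's own score minimum (14 in DIFF2, 23 or 24 elsewhere) were not counted.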

Other observations

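D-box genes downstream of the PAR bZIP proteins in mouse liver were examined for BMAL1 peaks of their own. Of 7 such genes (Por, Alas1, Nr1i3, Pdxk, Cyp2a4, Cyp2a5 and Cyp7a1), none had a peak in UNDIFF6, UNDIFF8 or DIFF1, where 14.2%, 9.59% and 26.6% of protein coding genes had one, and 6 had one in DIFF2 (84.3% of protein coding genes), 20 peaks in all. Counts of this size are near those backgrounds. That made 5.07 DIFF2 peaks per 100 kb, beside 6.29 at the clock output genes and 6.80 over the list. Alas1, the rate-limiting enzyme of heme synthesis, had 0 in every list. The nearest DIFF1 peak to these genes was at a median of 154 kb, beside 66.1 kb for the clock output genes and 95.4 kb for protein coding genes. Cyp2a4 and Cyp2a5 are near-identical paralogs, and their peak counts are uncertain for that reason.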
